A study of Mus musculus with 36 samples.

Results

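Mouse RAW264.7 cells, an established macrophage line, were exposed to IL-4 together with the peptide 65-79*SE or the peptide 65-79*PE, and the RNA of both groups was compared gene by gene. The comparison rests on the 12 libraries whose labels give IL-4 with a peptide, out of 36 libraries in the whole series. There were 6 libraries with 65-79*SE and IL-4 (SE+IL-4) and 6 with 65-79*PE and IL-4 (PE+IL-4). Both groups received peptide at 100 µg/ml and IL-4 at 5 ng/ml for 72 hours. The count table names replicates 1 to 3 and replicates 4 to 6 in different ways. The study's figure legends call them biological replicates from independent experiments, without saying which replicates belong to which. These label sets were therefore kept apart throughout. Another 6 libraries of the same table, labelled PBS, entered the fits only to help estimate the spread. They showed no IL-4 response, since the IL-4-induced lectin gene Mgl2 was at 0 to 0.37 CPM (read counts scaled to the size of the library) there against 22.2 to 77.7 CPM in the 12 peptide libraries. The model is limited to 1 transformed cell line, and no IL-4 library without peptide was analysed here.

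IL-4 binds a receptor made of Il4ra and a second chain, activates Jak kinases and the transcription factor Stat6, and drives macrophages towards the so-called M2 state, marked in mice by Arg1, Mgl2 and Mrc1. The opposite M1 state, driven by IFNγ and bacterial products, is marked by Nos2 and inflammatory cytokines. The peptides carry the third allelic hypervariable region of the HLA-DRβ chain: SE stands for the shared epitope, linked to risk of rheumatoid arthritis, and PE for the protective epitope. The question behind the comparison was whether these related sequences drive different transcription in cells that are otherwise polarized towards M2. Type I interferon, which macrophages also release in small amounts without infection, acts through a complex that holds Stat2 and Irf9 on a regulatory element near its target genes that repeats the letters GAAA.

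The cells carried macrophage transcripts at high levels in both groups. All 13 macrophage markers examined were tested, and their summed level was 4606 to 14181 CPM in the SE+IL-4 libraries and 6771 to 13403 CPM in the PE+IL-4 libraries. None of the markers for neutrophils, T cells, B cells, epithelial or erythroid cells passed the filter on low counts in the 12-library comparison, and 1 each of the dendritic cell, fibroblast and endothelial markers did. Of 6 osteoclast markers, genes of a cell type that macrophages can form, 5 were tested. All 5 had higher values with SE, 3 of them at an unadjusted p under 0.05. Over all tested genes 50% were higher, and 4.35% at that p. The median log2 fold change was 0.57, and 0.58 without SE replicate 4, when 4 of 5 were higher. Within replicates 4 to 6, 2 of 4 were higher, with a median of 0.22. Without SE replicate 1, PE replicate 2 or PE replicate 3, 3 of 5 were. None of these markers was called by edgeR or DESeq2. Their summed level was 70.9 to 238 CPM with SE and 69.1 to 238 CPM with PE, and their part in other results was not tested. For 12 of the 13 macrophage markers the 95% interval of the SE to PE fold change lay inside 1.5-fold, and their median log2 fold change was -0.06.

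The depth was 21050500 to 26523600 counted reads in the SE+IL-4 libraries and 17934300 to 30639000 in the PE+IL-4 libraries, so that 3 reads corresponded to 0.0979 to 0.167 CPM. The label sets differed far more than the peptides did: over both sets the first principal component held 89.3% of the variance, and summed histone transcripts were at 75.6 to 140 CPM in replicates 1 to 3 and at 3445 to 9302 CPM in replicates 4 to 6. The library SE+IL-4 replicate 4 stood apart within its own set, with a mean correlation of 0.977 with the other libraries. The same mean was 0.985 to 0.990 for each of the others, their correlation with SE replicate 4 included. SE replicate 4 lay at -52.1 on the first principal component of that set, where the others lay between 0.007 and 26.5. Results are therefore given with and without it. The labels do not say what separates the replicates within a label set, so that p-values measure the spread between these libraries, part of which may be technical.

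Of 13494 genes tested with edgeR's quasi-likelihood test, with the label set as a batch term, 1 differed between SE+IL-4 and PE+IL-4 at an adjusted p under 0.05 and a fold over 1.5, which is 0.00741% of the genes. That gene was Rnase4, which was lower with SE. No gene was called higher with SE. At an unadjusted p under 0.05, 587 genes (4.35%) had higher and 533 genes (3.95%) lower values with SE. Without SE replicate 4, none of 13608 genes was called by edgeR (0%), with 523 genes (3.84%) higher and 542 genes (3.98%) lower at an unadjusted p under 0.05, and DESeq2 called 6. Within replicates 1 to 3 edgeR called none of 12350 genes (0%; 250 higher, 2.02%, and 307 lower, 2.49%, at an unadjusted p under 0.05), and within replicates 4 to 6 none of 13472 (0%; 639 higher, 4.74%, and 416 lower, 3.09%). DESeq2 called 10 genes in the full comparison, 6 of them higher and 4 lower with SE.

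Rnase4 (chr14:51091077-51106151, plus strand, GRCm38) encodes a secreted ribonuclease of the family that also holds angiogenin. It was at 6.28, 4.32 and 5.42 CPM in SE+IL-4 replicates 1 to 3 and at 5.09, 6.33 and 5.71 CPM in replicates 4 to 6. In PE+IL-4 it was at 9.98, 7.66 and 7.61 CPM in replicates 1 to 3 and at 12.4, 9.80 and 10.5 CPM in replicates 4 to 6. No SE+IL-4 library reached the lowest PE+IL-4 library, and the PBS libraries, at 8.73 to 13.8 CPM, lay on the PE side. The log2 fold change of SE over PE was -0.79 with a standard error of 0.12 (95% interval -1.05 to -0.54), a 1.73-fold lower level with an adjusted p of 0.0375 by edgeR's quasi-likelihood test. Group means were 5.34 ± 0.982 and 8.42 ± 1.35 CPM (SD, n = 3) for SE and PE in replicates 1 to 3, and 5.71 ± 0.619 and 10.9 ± 1.37 CPM (SD, n = 3) in replicates 4 to 6. Without SE replicate 4 the log2 fold change was -0.74 and the adjusted p was 0.125, and the call was also lost on leaving out any of SE replicates 2, 3, 5 and 6 or PE replicates 1, 4, 5 and 6 (adjusted p 0.0832 to 0.200), always with the same direction. Rnase4 shares its locus and strand with Ang, the angiogenin gene, and reads in shared exons are uncertain. Ang itself was at 0.135 to 0.794 CPM, with a log2 fold change of -0.60 and an adjusted p of 0.65. Rnase4 also belongs to the genes picked on these samples by the study as lowered by SE, so its direction is not independent evidence.

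In the libraries with IFNγ in place of IL-4 that were used here, the same gene was also lower with SE. In those libraries, of replicates 1 to 3, Rnase4 was at 10.6, 10.6 and 9.22 CPM with SE and at 16.3, 18.1 and 18.9 CPM with PE. The log2 fold change there was -0.81 (adjusted p = 0.00138), and its difference from the change with IL-4 did not pass the test (adjusted p = 0.70).

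**Figure D1:**
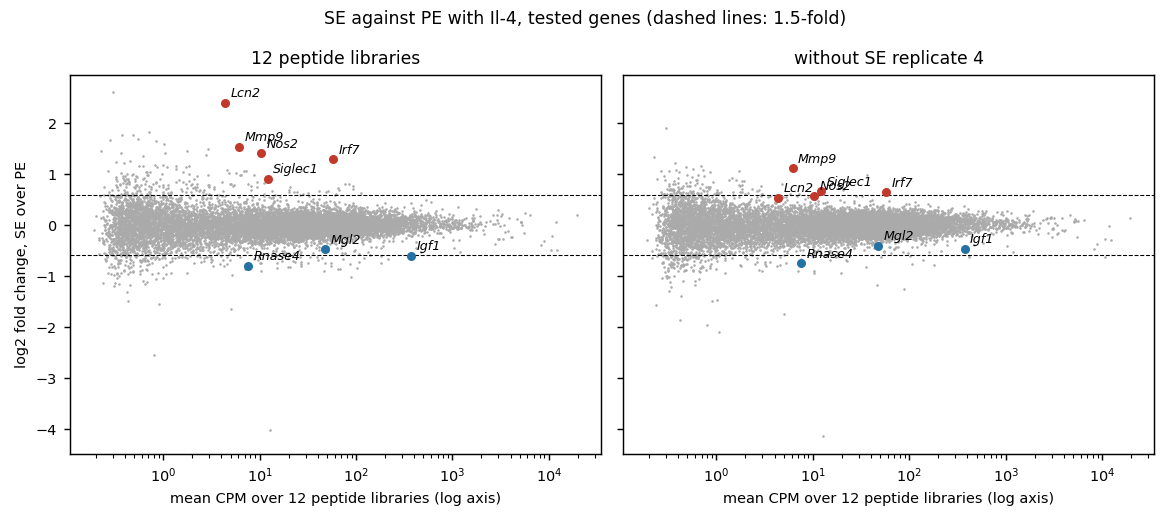
Log2 fold change of SE over PE with IL-4 (vertical axis) against mean CPM over the 12 peptide libraries (horizontal axis, log scale) for tested genes, with all 12 libraries (left) and without SE replicate 4 (right). Dashed lines mark 1.5-fold in each direction, and most genes lie between them; Lcn2, at 2.40 on the left, moves to 0.54 on the right, while Rnase4 stays at -0.79 and -0.74.

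For most genes the data also bounded how far apart the peptides could be. The median absolute log2 fold change was 0.104 over the 13494 tested genes, and for 9760 of them (72.3%) the whole 95% interval lay inside 1.5-fold in either direction. Among the 8750 genes with a mean of at least 10 CPM this held for 8183 (93.5%), with a median half-width of the interval of 0.216 on the log2 scale. In 132 genes (0.978%) every SE library lay above every PE library within each label set, and in 121 genes (0.897%) every one lay below. A test of the difference in log2 fold change between replicates 1 to 3 and replicates 4 to 6 called none of the 13494 genes by edgeR, with 279 genes (2.07%) higher and 151 (1.12%) lower in replicates 4 to 6 at an unadjusted p under 0.05. Genes named from here on that are not in the M1, M2 or study lists, and are not among those in which SE replicate 4 stood furthest apart, were chosen after their values were seen.

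The IL-4 receptor and its signalling chain were at nearly the same level with either peptide. Il4ra, the receptor's own chain, had a log2 fold change of 0.03 (95% interval -0.36 to 0.41) and Stat6, its transcription factor, one of 0.06 (-0.06 to 0.19). Cish, a feedback inhibitor that Stat proteins induce, was at 3.47 to 9.99 CPM with SE and 4.59 to 12.6 CPM with PE, against at most 0.0997 CPM in the PBS libraries, and its log2 fold change was 0.00 (-0.36 to 0.37). Of the 14 genes listed for IL-4 receptor and signalling, 12 were tested, 9 had higher values with SE, and the median log2 fold change was 0.05. The interval lay inside 1.5-fold for 11 of them. The exception in size was Jak3, the kinase of the common cytokine receptor chain, at 0.36 (0.12 to 0.59; adjusted p = 0.43).

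With all 12 libraries the M2 markers gave no uniform direction. Without SE replicate 4 neither of the 2 tested markers had a higher value with SE, with a median log2 fold change of -0.23. The same held within replicates 1 to 3, with a median of -0.32. Within replicates 4 to 6 without SE replicate 4, 1 of 2 was higher, with a median of -0.12. Arg1, which breaks down arginine in M2 cells, was at 8.29, 4.37, 5.47, 9.28, 5.92 and 6.46 CPM in SE+IL-4 replicates 1 to 6 and at 11.4, 5.38, 5.81, 7.34, 4.39 and 3.57 CPM in PE+IL-4 replicates 1 to 6. The groups overlapped in full, with a log2 fold change of 0.08 (95% interval -0.47 to 0.62). Mgl2 (chr11:70130329-70137550, plus strand) was at 63.9, 47.9 and 51.4 CPM with SE and 77.7, 60.4 and 65.2 CPM with PE in replicates 1 to 3, and at 22.2, 26.9 and 31.1 CPM with SE and 44.5, 36.1 and 42.8 CPM with PE in replicates 4 to 6. It separated the peptides in replicates 4 to 6 but not in replicates 1 to 3, and its log2 fold change of -0.47 (-0.73 to -0.20) had an adjusted p of 0.36, or 0.53 without SE replicate 4. Chil3 and Ccl17, the other M2 markers, were at or near 0 in all 12 libraries and were not tested. With no filter on low counts, 1 of 3 M2 markers passed edgeR's adjusted test, against 240 of all 27458 genes.

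Among 25 further IL-4 target genes, 17 were tested, 9 had higher values with SE and 8 lower, and the median was 0.01. The abundant growth factor gene Igf1 was at 551, 385, 272, 110, 215 and 278 CPM in SE+IL-4 replicates 1 to 6 and at 694, 470, 494, 297, 317 and 404 CPM in PE+IL-4 replicates 1 to 6. The lower values were mostly with SE, the groups overlapped in replicates 1 to 3 but not in replicates 4 to 6, and the log2 fold change was -0.60 (95% interval -1.09 to -0.12; adjusted p = 0.53) with all libraries and -0.46 without SE replicate 4. Clec10a, a lectin related to Mgl2, had a log2 fold change of -0.37 (-0.62 to -0.13; adjusted p = 0.43). Mrc1, the mannose receptor, had one of -0.21 (-0.59 to 0.18), and Irf4, a transcription factor of M2 cells, one of -0.32 (-0.77 to 0.13).

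**Figure D2:**
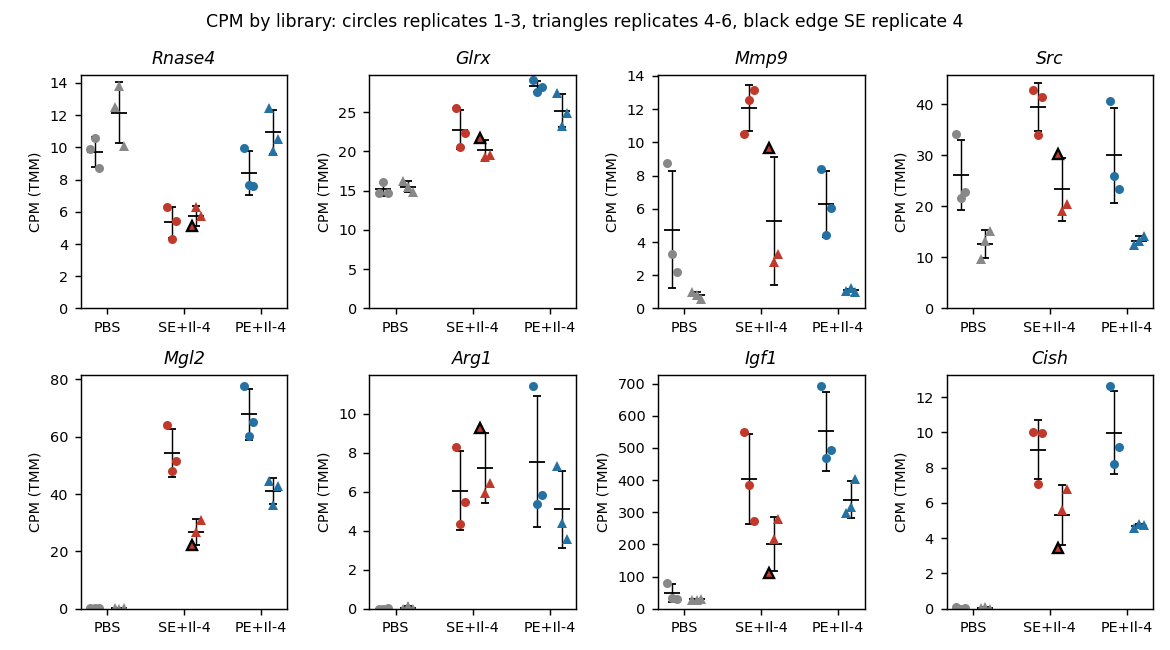
CPM (TMM-scaled, vertical axis from 0) of 8 genes in each PBS, SE+IL-4 and PE+IL-4 library; circles are replicates 1 to 3, triangles replicates 4 to 6, the black edge marks SE replicate 4, and black bars show the mean and SD (n = 3) of each label set. The 6 SE points of Rnase4, at 4.32 to 6.33 CPM, lie below all 6 PE points, whereas Arg1 and Cish overlap between the peptides and are near 0 in the PBS libraries.

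Of the 9 M1 markers, 5 passed the filter on low counts, and all 5 had higher values with SE, with a median of 0.91 over 12 libraries, 0.57 without SE replicate 4 and 0.12 within replicates 1 to 3. None was called. With no filter on low counts, 4 of 8 passed edgeR's adjusted test, against 240 of all 27458 genes. Nos2, the inducible nitric oxide synthase (chr11:78920787-78960254, plus strand), was at 3.37, 6.01 and 7.47 CPM with SE and 3.40, 7.28 and 4.85 CPM with PE in replicates 1 to 3. In replicates 4 to 6 it was at 55.9, 11.2 and 9.77 CPM with SE and 6.69, 4.99 and 2.88 CPM with PE. The first set overlapped, the second did not, and replicate 4 alone held the highest SE value. The log2 fold change was 1.41 (95% interval 0.34 to 2.47; adjusted p = 0.50), and 0.57 (-0.10 to 1.25; adjusted p = 0.67) without SE replicate 4.

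Ccl2, a monocyte attractant, depended least on that library, with log2 fold changes of 0.74 (0.22 to 1.27; adjusted p = 0.44) with it and 0.70 without it. It was at 35.7, 16.5, 18.1, 31.5, 27.6 and 25.3 CPM in SE+IL-4 replicates 1 to 6 and at 23.7, 13.9, 13.1, 17.1, 13.8 and 9.56 CPM in PE+IL-4 replicates 1 to 6. Tnf, a central inflammatory cytokine, moved from 0.33 (-0.13 to 0.79) to 0.09 without SE replicate 4, and Il23a, a subunit of interleukin 23, from 1.14 to 0.39. Cxcl10, an interferon-induced chemokine, lay between 0.0836 and 0.721 CPM, close to the detection floor, with 0.91 and 0.80. Il6, which was not tested, reached 3.02 CPM in SE replicate 4 and at most 0.351 CPM in the other 11 libraries.

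The type I interferon genes had the highest median of the lists with more than 5 tested genes. Promoter windows of 3 of them are shown because these genes separated the peptides in both label sets and hold the letters described next. The letters in capitals match GAAA, any 2 bases and GAAA again, the core of an interferon-stimulated response element, or its reverse complement TTTC, any 2 bases and TTTC. Overlapping matches are merged. The windows are from RefSeq on GRCm38.p6 and run 5′ to 3′ on the strand of the gene. Rsad2 lies on the minus strand of chromosome 12 (chr12:26456538-26456597), Ifit1 on the plus strand of chromosome 19 (chr19:34640760-34640819) and Isg15 on the minus strand of chromosome 4 (chr4:156200862-156200921).
Rsad2: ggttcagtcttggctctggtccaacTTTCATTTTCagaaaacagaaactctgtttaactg
Ifit1: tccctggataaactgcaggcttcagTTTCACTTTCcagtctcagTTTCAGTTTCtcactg
Isg15: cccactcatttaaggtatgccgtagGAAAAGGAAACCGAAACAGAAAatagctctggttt

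The promoter of Rsad2 held 1 match, that of Ifit1 2 and that of Isg15 3 overlapping ones. No match was recorded for Oasl1, Irf7, Usp18, Ifi44l and Siglec1. That record does not tell a promoter without a match from a gene without an entry. Over promoters running from 250 bases before to 50 after the start site, 10 of the 19 type I interferon genes with an entry held at least 1 match (52.63%), against 352 of 9094 tested genes with an entry (3.871%) and 1131 of all 32851 windows (3.443%). These matches describe the letters and are not evidence of binding.

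Of the 26 type I interferon genes, 25 passed the filter, all 25 had higher values with SE, and 19 had an unadjusted p under 0.05, but none passed edgeR's adjusted test. With no filter on low counts 19 of the 26 passed it, against 240 of all 27458 genes. Without SE replicate 4 DESeq2 called Irf7 and Rsad2, of 6 called among 12081 genes. Over all genes tested with the filter 50% had a log2 fold change above 0 and 4.35% were higher at that unadjusted p. The median log2 fold change of the list was 0.67 over 12 libraries and 0.34 without SE replicate 4, when 23 of 25 had higher values, against 50.4% of all genes, and 12 had an unadjusted p under 0.05. It was 0.17 within replicates 1 to 3 and 0.44 within replicates 4 to 6 without SE replicate 4. In 4 of the genes, Ifit1, Isg15, Rsad2 and Oasl1, every SE library lay above every PE library of its label set, with or without replicate 4. Without it, 1.48% of all genes lay so and 1.3% the opposite way. For Isg15 the margin in replicates 1 to 3 was minute, and its sign depended on the scaling. Oasl1 had log2 fold changes of 0.67 and 0.37. The mean log2 CPM of the list was 3.76, 3.84, 3.77, 5.16, 3.68 and 3.73 in SE+IL-4 replicates 1 to 6, and 3.31, 3.79, 3.62, 3.23, 3.22 and 3.10 in PE+IL-4 replicates 1 to 6. The PBS libraries held 3.98 to 4.28, above every peptide library other than SE replicate 4.

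Rsad2, the antiviral protein viperin, was at 1.78, 1.38 and 1.13 CPM with SE and 1.10, 0.990 and 1.09 CPM with PE in replicates 1 to 3, and at 15.7, 3.33 and 3.56 CPM with SE and 1.61, 1.65 and 1.55 CPM with PE in replicates 4 to 6. The difference was small in the first set and larger in the second. Its log2 fold change was 1.49 (95% interval 0.68 to 2.29; adjusted p = 0.36) and 0.77 without SE replicate 4 (adjusted p = 0.44). Ifit1, which binds foreign RNA ends, was at 1.17, 1.21 and 0.918 CPM against 0.643, 0.861 and 0.669 CPM in replicates 1 to 3, and at 9.14, 1.59 and 1.75 CPM against 1.27, 0.922 and 0.806 CPM in replicates 4 to 6. Its log2 fold change was 1.44 (0.61 to 2.27) and 0.66 without SE replicate 4, both with no call.

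Isg15, a ubiquitin-like modifier, was at 10.7, 13.01, 11.9, 10.99, 1.998 and 3.06 CPM in SE+IL-4 replicates 1 to 6 and at 6.54, 10.7, 9.61, 0.994, 1.43 and 1.67 CPM in PE+IL-4 replicates 1 to 6. SE replicate 1 and PE replicate 2 were thus nearly equal. Scaled together with the IFNγ libraries their order reversed, at 9.928 and 9.931 CPM. The level in replicates 4 to 6 was low apart from SE replicate 4, and the log2 fold change was 1.07 (0.33 to 1.80), or 0.58 without that library. Irf7, the transcription factor that amplifies the interferon response, was at 57.03, 81.7, 72.6, 199.6, 37.2 and 36.7 CPM with SE and at 33.2, 58.3, 52.9, 24.7, 21.2 and 19.97 CPM with PE. The groups did not overlap in replicates 4 to 6, while in replicates 1 to 3 SE replicate 1 lay just below PE replicate 2. The log2 fold change was 1.30 (0.56 to 2.03; adjusted p = 0.36), and 0.65 (0.34 to 0.96; adjusted p = 0.44) without SE replicate 4. Irf7 overlaps Phrf1, and reads in the overlap are uncertain.

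Siglec1, a sialic acid receptor of macrophages that interferon induces (chr2:131069220-131086765, minus strand), was at 15.3, 16.9 and 21.9 CPM with SE against 11.4, 13.6 and 11.5 CPM with PE in replicates 1 to 3. In replicates 4 to 6 it was at 20.9, 7.84 and 10.5 CPM against 4.46, 5.60 and 5.99 CPM. The peptides did not overlap within either set, and the log2 fold change was 0.91 (0.50 to 1.32; adjusted p = 0.27), or 0.66 without SE replicate 4. Siglec1 was called by DESeq2 in both comparisons but not by edgeR.

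**Figure D3:**
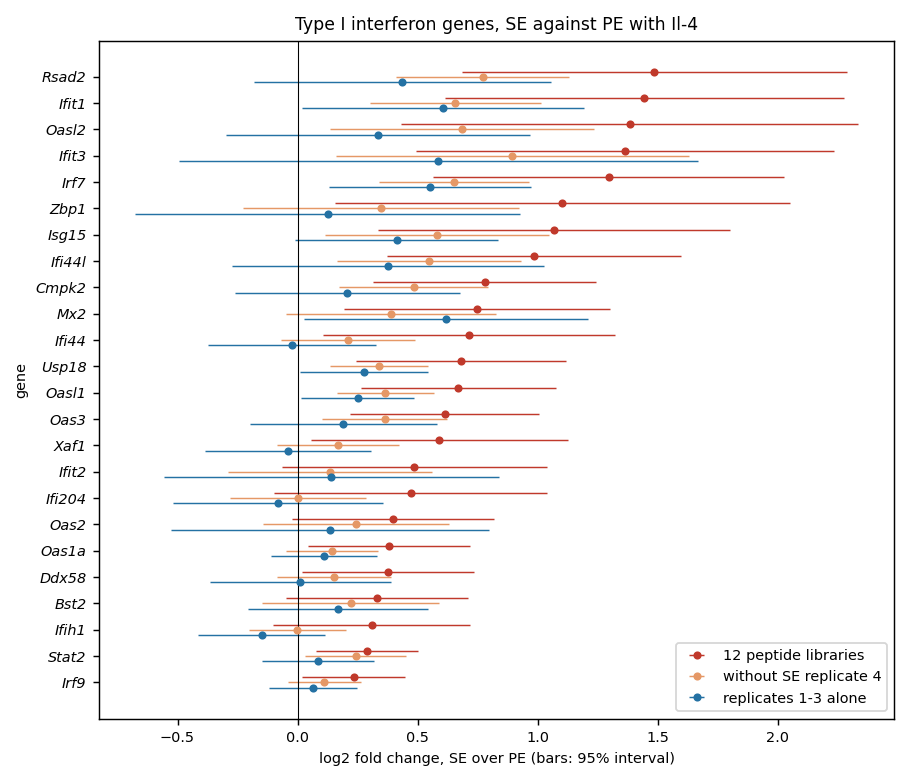
Log2 fold change of SE over PE (horizontal axis, bars are 95% intervals) for 24 of the 25 tested type I interferon genes (vertical axis) with all 12 libraries, without SE replicate 4 and in replicates 1 to 3 alone. All points of the 12-library fit lie to the right of 0; the median of the whole list is 0.67 there, 0.34 without SE replicate 4 and 0.17 in replicates 1 to 3.

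**Figure D4:**
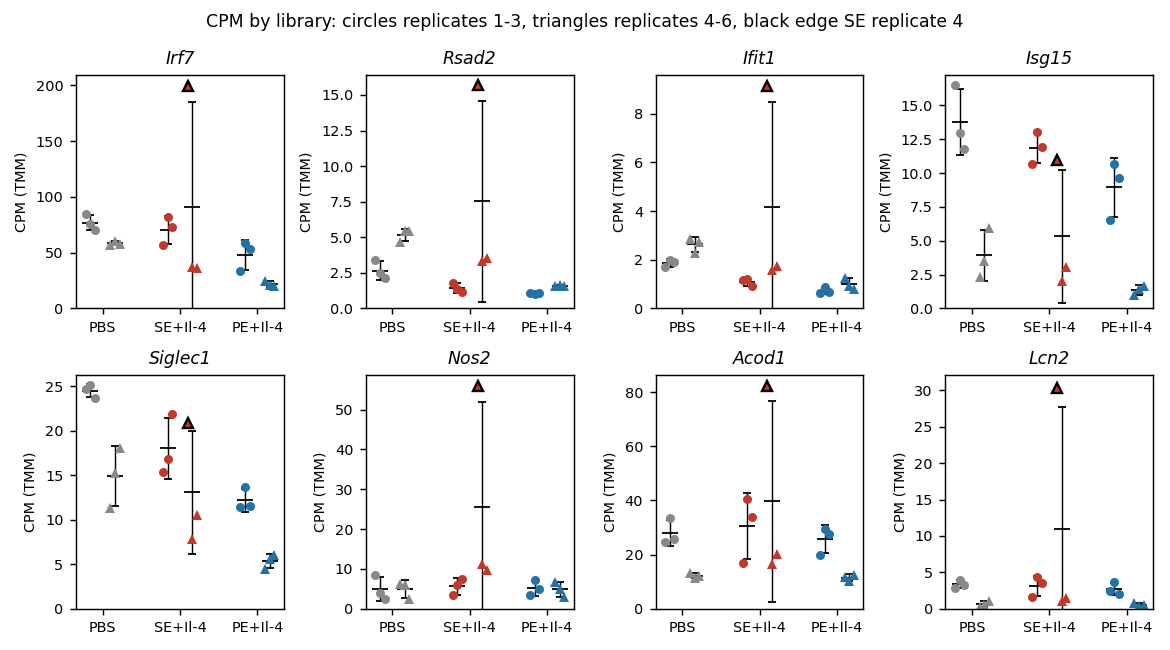
CPM (TMM-scaled, vertical axis from 0) of 8 interferon and inflammatory genes in each PBS, SE+IL-4 and PE+IL-4 library, with symbols and bars (mean and SD, n = 3 per label set) as in the plot of Rnase4 and Mgl2. The black-edged triangle, SE replicate 4, is the highest SE point for 6 of the 8 genes, among them Irf7 at 199.6 CPM, Nos2 at 55.9 CPM and Lcn2 at 30.3 CPM, but not for Isg15 or Siglec1.

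Lists of genes named by the study as moved, relative to PBS, by a single peptide were also examined. They were chosen on these samples, so that their directions follow in part from that choice and are no independent evidence. Of 20 tested genes listed as raised by SE alone, all had higher values with SE than with PE, with a median of 0.27 and 5 at an unadjusted p under 0.05. Of 17 listed as lowered by PE alone, all had higher values with SE, with a median of 0.35 and 11 at an unadjusted p under 0.05. All 14 listed as raised by PE alone (median -0.33, 8 at an unadjusted p under 0.05) and all 8 tested ones listed as lowered by SE alone (median -0.34, 3 at that p) had lower values with SE. Rnase4 was the only member of these lists that passed edgeR's adjusted test, while DESeq2 also passed Mmp9, Zfp608, Glrx and Slc40a1.

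Mmp9, a matrix-degrading protease of osteoclasts and inflamed joints (chr2:164940780-164955850, plus strand), separated the peptides in both label sets. It was at 10.5, 12.5 and 13.1 CPM with SE and 8.39, 4.43 and 6.06 CPM with PE in replicates 1 to 3, and at 9.68, 2.78 and 3.31 CPM with SE and 1.06, 1.21 and 0.979 CPM with PE in replicates 4 to 6. The log2 fold change was 1.54 (95% interval 0.79 to 2.29; adjusted p = 0.30), and 1.12 without SE replicate 4 (adjusted p = 0.44). DESeq2 called Mmp9 in both comparisons, with adjusted p of 0.0126 and 0.0475.

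Glrx, a glutaredoxin that reduces disulfides (chr13:75839868-75850154, plus strand), gave a difference with a narrow interval. It was at 25.5, 20.5, 22.3, 21.7, 19.4 and 19.6 CPM in SE+IL-4 replicates 1 to 6 and at 29.1, 27.6, 28.2, 27.5, 23.3 and 24.9 CPM in PE+IL-4 replicates 1 to 6. The groups did not overlap within either set, both lay above the PBS libraries at 14.7 to 16.2 CPM, and the log2 fold change was -0.32 (-0.47 to -0.16; adjusted p = 0.32), or -0.33 without SE replicate 4. DESeq2 passed Glrx at an adjusted p of 0.027 and 0.0475. Tnfrsf17, the receptor BCMA, also lay lower with SE in every library of each set, at 0.0901 to 1.25 CPM against 0.541 to 2.04 CPM, with log2 fold changes of -1.04 and, without SE replicate 4, -0.86. Zfp608, a zinc finger gene, had -0.61 (-0.89 to -0.33; adjusted p = 0.27) and -0.59, and DESeq2 passed it at an adjusted p of 0.0213 with all libraries only.

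Slc40a1, the iron exporter ferroportin, had a log2 fold change of 1.02 (0.48 to 1.57; adjusted p = 0.36) and 0.81 without SE replicate 4, with an adjusted p of 0.048 by DESeq2 over all libraries. Src, a kinase of osteoclasts, had 0.60 and 0.47. Lcn2, an iron-binding acute phase protein, was at 30.3 CPM in SE replicate 4 against 1.11 and 1.50 CPM in SE replicates 5 and 6, and its log2 fold change dropped from 2.40 to 0.54 without that library. Acod1, which makes itaconate in activated macrophages, dropped from 1.08 to 0.43. Cd74, the class II invariant chain, was at 0.21 (-0.18 to 0.60), Anxa1, an anti-inflammatory annexin, at -0.07 (-0.25 to 0.10), and Atf3, a stress transcription factor, at 0.23 (-0.14 to 0.59).

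Osteoclast genes were examined because the line can form osteoclasts. Of 18, 17 were tested, 12 had higher values with SE, and 6 of these had an unadjusted p under 0.05. Over all tested genes 50% were higher, and 4.35% at that p. The median of the list was 0.18, and 0.17 without SE replicate 4. Besides Mmp9, Ocstamp, which is needed for cell fusion, lay higher with SE in both sets, at 1.49 to 2.99 CPM against 0.689 to 1.36 CPM, with a log2 fold change of 0.89 (0.23 to 1.56; adjusted p = 0.48). Acp5, the tartrate-resistant phosphatase, was at 67.1, 61.8, 60.2, 14.9, 14.2 and 14.6 CPM with SE and 61.01, 29.2, 32.1, 9.57, 9.54 and 11.9 CPM with PE in replicates 1 to 6. Its log2 fold change was 0.57 (0.06 to 1.07; adjusted p = 0.58). The osteoclast protease gene Ctsk and the master regulator Nfatc1 had values of 0.06 (-0.30 to 0.43) and -0.02 (-0.28 to 0.24).

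The remaining lists held no gene that passed edgeR's adjusted test, while DESeq2 passed Plaur of the NF-κB list below and, of the metal and iron list, Slc40a1. The endotoxin response list had a median of 0.36, with 11 of 14 tested genes higher with SE, and 0.14 without SE replicate 4. The NF-κB list had 21 of 26 higher and a median of 0.19, which became 0.08, with 11 of 26 higher and a median of -0.01 within replicates 1 to 3. Its member Plaur, the urokinase receptor, was at 0.38 (0.20 to 0.56; adjusted p = 0.27 by edgeR and 0.0213 by DESeq2). The integrated stress response list had 23 of 24 higher, with medians of 0.21 and 0.17, and its member Sesn2, an inhibitor of growth signalling, was at 0.47 (0.23 to 0.72; adjusted p = 0.36). Of the IFNγ response genes 18 of 19 were higher, with medians of 0.21 and 0.11, and of the unfolded protein response genes 13 of 14, with medians of 0.21 and 0.08. Among costimulatory and checkpoint genes, 11 of 14 were higher with medians of 0.18 and 0.14, and Lgals9, encoding galectin 9, separated the peptides in both sets with log2 fold changes of 0.67 and, without SE replicate 4, 0.50 (adjusted p = 0.36 and 0.53). The medians of the other pathway lists examined, among them class II presentation, cytokine receptors, lysosome, glycolysis and cell division, lay between -0.17 and 0.18.

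All 24 ribosomal protein genes and all 20 nuclear oxidative phosphorylation genes had intervals inside 1.5-fold, with medians of -0.00 and -0.00, and so had 22 of 23 cholesterol synthesis genes and all 24 genes of the PI3K-Akt and mTOR list. The 11 tested genes encoded by the mitochondrial genome all had lower values with SE, with a median of -0.27, but of -0.14 without SE replicate 3, -0.17 without SE replicate 4 and -0.08 without PE replicate 6 (4 of 11 then higher), and none had an unadjusted p under 0.05. The share of reads from mitochondrial genes was 1.50% to 3.25% in replicates 1 to 3 and 2.12% to 8.52% in replicates 4 to 6. The role of this spread in the values of single genes was not tested.

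**Figure D5:**
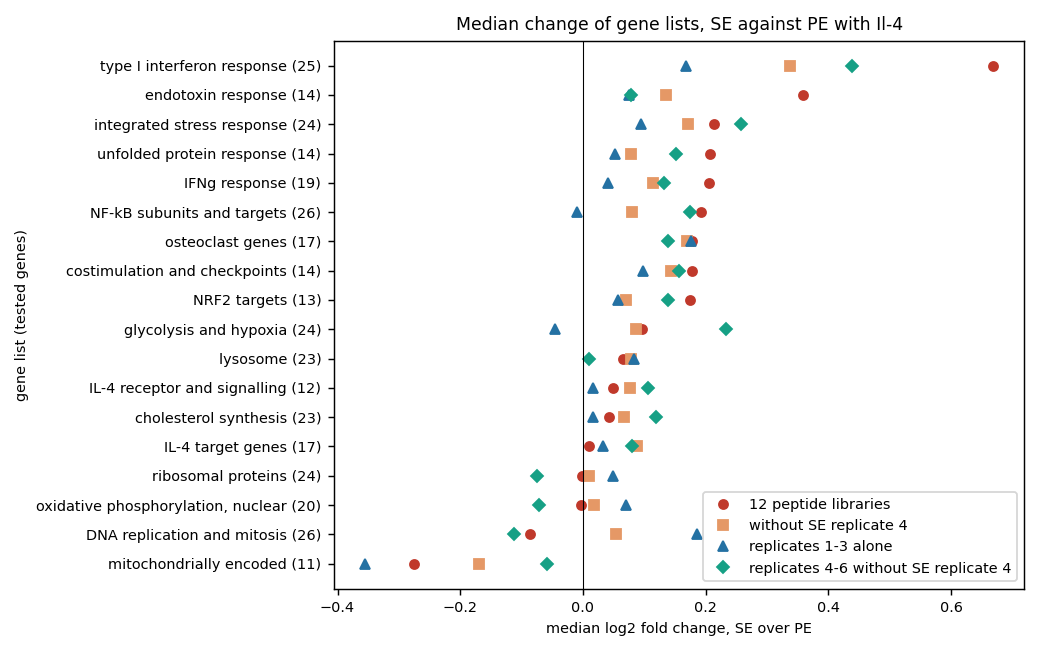
Median log2 fold change of SE over PE (horizontal axis) of 18 gene lists (vertical axis, number of tested genes in parentheses) with all 12 libraries, without SE replicate 4, in replicates 1 to 3 alone and in replicates 4 to 6 without SE replicate 4. The type I interferon list is furthest right at 0.67 and drops to 0.34 without SE replicate 4, and the ribosomal protein list lies at -0.00.

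The genes in which SE replicate 4 stood furthest from SE replicates 5 and 6 included interferon and inflammatory genes above them and mitochondrial and histone transcripts below them. Irf7 was 5.35-fold, Nos2 5.14-fold and Acod1 4.42-fold higher there than in SE replicates 5 and 6. Casp4, an inflammatory caspase that senses endotoxin, was at 159 CPM against 43.7 and 40.6 CPM, and Ifi202b, an interferon-induced gene, was 3.65-fold higher. The mitochondrial ribosomal RNA mt-Rnr1 was 11.4-fold lower, but it ran from 778 to 12562 CPM in PE replicates 4 to 6 as well. The chemokine receptor gene Cx3cr1 was at 5.45 CPM against 29.5 and 28.2 CPM, and P2ry6, a nucleotide receptor gene, was 4.39-fold lower. All these folds describe 1 library and carry no test.

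Far more genes were called between the same peptides when the cells had received IFNγ, the M1-polarizing cytokine, in place of IL-4. In replicates 1 to 3 of both experiments, which were counted in separate tables and joined here only to compare contrasts, 809 of 15204 genes (5.32%) were called between SE and PE with IFNγ, 538 higher and 271 lower with SE. In the same model no gene was called with IL-4. The remaining SE and PE libraries of both experiments were left out of this model. The counts with IFNγ therefore cover only part of the IFNγ libraries of the series. Of the 809 genes called with IFNγ, 357 had the same sign with IL-4, a share that was not counted over all genes. With IL-4, 106 of the 809 exceeded 1.5-fold, against 1766 of all 15204 genes. The median absolute log2 fold change of the 809 was 0.868 with IFNγ and 0.154 with IL-4, but they had been selected for a large change with IFNγ. Over all 15204 genes the medians were 0.196 with IFNγ and 0.122 with IL-4, and 1551 genes exceeded 1.5-fold with IFNγ. The difference between the contrasts passed the test in 576 genes (3.79%), of which 225 had the higher value with IL-4 and 351 the lower. That count depended on single libraries: it was 1465 without SE+IL-4 replicate 1, 269 without SE+IFNγ replicate 1, 342 without SE+IFNγ replicate 3 and 318 without PE+IFNγ replicate 3. Among the IL-4 libraries of this model, SE and PE replicate 1 lay at -26.8 and -25.9 on the first principal component. The others lay at 4.68 to 23.7. Counts of calls also depend on the spread between libraries, and its part in this contrast was not tested.

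Pgf, placental growth factor, had a log2 fold change of SE over PE of -0.13 with IL-4 and 3.21 with IFNγ (adjusted p of the difference 8.9e-05). Igf1 had -0.46 and 1.28 (adjusted p = 0.0033), and Glrx -0.31 and 0.79 (adjusted p = 0.00028), so that both lay on opposite sides of 0 with the 2 cytokines. Acod1 had 0.25 and 2.19 (adjusted p = 0.0043). Mmp9 had 0.93 and 1.01, and the difference did not pass the test (adjusted p = 0.94). At an adjusted p under 0.05 and any fold, 1078 of the 15204 genes (7.09%) differed between the cytokines. Of the endotoxin response list, 7 of 17 genes had a lower and none a higher SE to PE change with IL-4 than with IFNγ (6 to 8 lower on leaving out each library). A higher change with IL-4 was found in 9 of 14 unfolded protein response genes (6 to 9) and in 7 of 23 cholesterol synthesis genes (6 to 9). In the type I interferon list, 1 of 26 genes differed, with a lower change with IL-4, and 1 to 6 did on leaving out each library.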

How the data were processed

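RNA of 36 libraries of RAW264.7 cells had been sequenced by the authors as single-end reads from stranded mRNA libraries. The deposited table with IL-4 holds raw counts of uniquely mapped reads per gene, made by the authors with featureCounts on GENCODE gene models of GRCm38.p5. Which aligner and strand option were used is not given in the sources used here. The submitters' processing notes name DESeq2 1.16.1 and R 3.4.1.

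The counts, as deposited, were fitted with edgeR 4.0.16 (R 4.3.3): TMM normalization, filterByExpr by group, glmQLFit and glmQLFTest over all 18 libraries of the table, with the label set (replicates 1 to 3 or 4 to 6) as a batch term and Benjamini-Hochberg adjustment over all tested genes. A gene was called at an adjusted p under 0.05 and a fold over 1.5. Intervals are 95% intervals of the fit. CPM values are TMM-scaled, and depth limits cover counting error only. The fit was repeated without SE replicate 4, within each label set, for the difference between label sets, and for the difference between IL-4 and IFNγ in 12 libraries of replicates 1 to 3. DESeq2 1.42.0, other normalizations, filters and designs were alternatives. Scripts were tested on simulated data. Coordinates are from GENCODE for GRCm38, in which 47214 of 49568 gene names (95.25%) were found. In the table, 26 gene names had turned into dates.

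Genes named by rule were the M1, M2 and study lists, called genes, the members of other lists of highest CPM, and 8 genes in each direction in which SE replicate 4 stood furthest from SE replicates 5 and 6 at a mean of at least 10 CPM. The comparison, its members and the gene lists were chosen with earlier results of these data known. The value of 1 gene of the type I interferon list is not reported here. No library was left out of the comparison of SE+IL-4 with PE+IL-4. Its replicate libraries differed by more than counting noise (chi-square per degree of freedom 11.5 to 174).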

Additional observations from a re-analysis of the deposited data

Results flagged for a closer look

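Of 122 groups of 6 values (a gene in the SE+IL-4 or the PE+IL-4 libraries) and 16 groups of list scores, 10 held a library whose gap to the others exceeded Dixon's 95% limit. Chance gives about 1 in 20 such groups in samples from a single normal distribution, but each group here pools both label sets, whose levels differ. Some of the genes were named because SE replicate 4 stood furthest apart in them, and others after their values were seen. In 7 of the 10 the library was SE replicate 4. It had the highest SE value of Ifit1 (9.14 CPM), Usp18 (157 CPM) and Ifi44l (29.9 CPM), which are interferon-induced genes, and of Lcn2 (30.3 CPM) and Atf3 (545 CPM). It also had the highest mean log2 CPM of the type I interferon list, 5.16, and the lowest SE value of Pparg, a lipid-sensing nuclear receptor (2.70 CPM). PE replicate 1 had the highest PE value of Mrc1 (52.998 CPM) and the lowest of Cx3cr1 (14.4 CPM), and SE replicate 1 the highest SE value of Ocstamp (2.99 CPM).

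The SE to PE change differed between IL-4 and IFNγ, by edgeR's test of the difference in replicates 1 to 3, at any fold in 17 of 62 genes tested from those named, many of which were chosen after their values were seen, against 7.09% of all genes. On the log2 scale, the change with IL-4 less that with IFNγ was -3.35 for Pgf, -2.39 for the arginase gene Arg2, -2.13 for Irf4, -1.94 for Acod1 and -1.91 for Cish. It was -1.76 for Ptgs2, the inducible cyclooxygenase, -1.74 for Igf1, -1.36 for the chemokine Cxcl2, -1.11 for Layn and -1.10 for Glrx. With IFNγ, Arg2 was at 0.34 to 0.70 CPM with SE and 0.066 to 0.072 CPM with PE. Cish was at 0.45 to 0.69 CPM with SE and 0.14 to 0.22 CPM with PE there. The PE values of both genes were thus at or near the detection floor. Smaller differences were -0.97 for Rgs2, -0.80 for Siglec1, -0.76 for Ms4a6c and -0.74 for Atf3. In the other direction the difference was 0.89 for the costimulatory gene Cd80, 0.63 for Fam102a and 0.43 for Armc7.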

How the results depend on the processing

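In the comparison of SE+IL-4 with PE+IL-4, the 1 called gene compares with 10 by DESeq2 (24 at any fold) and 155 of 27458 genes, 99 higher and 56 lower, with no low count filter (240 at any fold). It compares with 0 without the label set term, with the 12 peptide libraries alone, within either label set, and in replicates 4 to 6 without SE replicate 4. Leaving out each library in turn gave 0 to 1. Without SE replicate 4 the count of 0 became 6 by DESeq2 (13 at any fold) and 47 with no filter (85 at any fold). Between IL-4 and IFNγ, leaving out each library gave 269 to 1465 genes against 576 (365 to 3154 against 1078 at any fold). The cause of these shifts was not tested. RLE size factors, a filter of 10 counts in every library and leaving out small noncoding, histone and mitochondrial genes left the main count at 1. No named gene reversed a called direction, but in most settings at most 1 named gene was called. The sign changed in 11 of 60 named genes within replicates 1 to 3, and in 1 to 4 of 61 on leaving out each library. The median of all genes stayed within 0.0125 of 0. Genes under about 0.167 CPM cannot be told from 0 at this depth.

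The replicate number as a block in place of the label set gave 2 called genes, 1 higher and 1 lower, and 1 without SE replicate 4. The numbers were not taken as pairing the samples: the correlation of same-numbered SE and PE deviations was -0.0628 to 0.398, and SE replicates 2 and 5 correlated best with PE replicates 3 and 6.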
